A study of Mus musculus with 6 samples.

Results

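The 35 genes described here mark liver cells other than hepatocytes and macrophages, and were read in 6 hepatocyte preparations as a measure of how pure each one was. They are listed markers, not genes chosen for how they moved: 12 of endothelial cells, 10 of stellate cells and fibroblasts, 5 of the bile duct, 3 of lymphocytes, 2 of neutrophils and 3 of red cells. All 35 were found by symbol among the 48353 genes of the files. The knock-out libraries came from hepatocytes of mice in which a floxed Bim gene (symbol Bcl2l11) was deleted with Alb-Cre, and the controls from hepatocytes labelled wild-type, with 3 libraries of polyadenylated RNA in each. Alb-Cre makes the Cre recombinase from the albumin promoter, so that deletion is aimed at hepatocytes and not at the endothelial, stellate or blood cells described here. All mice were C57BL/6, and hepatocytes were freed by perfusing the liver with collagenase. The protocol speaks of males on chow or on a high-fat diet begun at 8-10 weeks of age, and which diet a library had is not given in the labels. The labels do not say whether each library is a separate mouse, so the spread between libraries may be technical.

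The liver sinusoid is lined by fenestrated endothelial cells, which take up waste from the blood through scavenger receptors of the stabilin family. Stellate cells lie behind them, store vitamin A and turn into collagen-making myofibroblasts upon injury. Cholangiocytes line the bile ducts and carry keratins that hepatocytes lack. Perfusion and low-speed spins keep hepatocytes and leave most of these cells behind, so that their RNA in a hepatocyte library is usually read as carry-over. In such bulk RNA fewer cells of a type and less RNA per cell cannot be told apart.

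Hepatocyte genes were read in all 6 libraries, and 1 library stood apart in its macrophage genes. The library totals were 25335211 to 28245264 estimated reads in knock-out libraries, against 28131355 to 31130519 in wild-type. Bcl2l11 was listed at 0 in the 3 knock-out libraries and at 0, 680 and 478 reads in wild-type replicates 1 to 3, at a locus with 8 transcripts. This gene therefore does not tell wild-type replicate 1 from the knock-out libraries, and its genotype is taken from its label. Alb, the albumin gene, took 2.93% to 4.60% of the reads in knock-out libraries, against 2.23% to 5.09% in wild-type. Of 17 hepatocyte genes matched, 16 were read, and together they took 4.58% to 6.27% of the reads in knock-out libraries, against 3.52% to 7.20% in wild-type, lowest in wild-type replicate 1. The 18 macrophage genes, of which 16 were read, took 0.0117% to 0.0193% in knock-out. In wild-type they took 0.668% in replicate 1, against 0.0198% and 0.0173% in replicates 2 and 3.

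How far a value of 0 can be read depends on the locus. Among loci above 0 in at least 3 libraries, with a median over 100 reads in those, a library value was 0 in 0.0156% of cases at loci with 1 annotated transcript but in 18.0% at loci with 2 or more, so that a 0 at a locus with several transcripts may be an estimate that was not made. Of the 35 markers 8 lie at loci with 1 transcript (Acta2, Tagln, Lrat, Sox9, Epcam, Cd3e, Cd79a and Hbb-bt) and 27 at loci with more. Over the 35 markers, 13 were above 0 in some library, 5 in all 6, and 22 in none. Of these 22, 20 lie at loci with 2 or more transcripts. That is 20 of 27, where 46.0% of all 15191 protein-coding genes at such loci were at 0 throughout, and the remaining 2 of 22 are 2 of 8 at loci with 1 transcript, where 53.3% of 6504 were. Genes named as ribosomal, respiratory chain and proteasome genes were at 0 throughout in 15 of 173 cases at loci with 2 or more transcripts. At loci with 1 transcript they were in 6 of 44. They were picked by name alone, which may take in relatives that not every cell uses, so some of these zeros may be true. A 0 in all 6 libraries is not taken here as a measure of absence at either kind of locus. The macrophage genes Fcer1g and Laptm5 were likewise listed at 0 in every library, wild-type replicate 1 included.

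**Figure D1:**
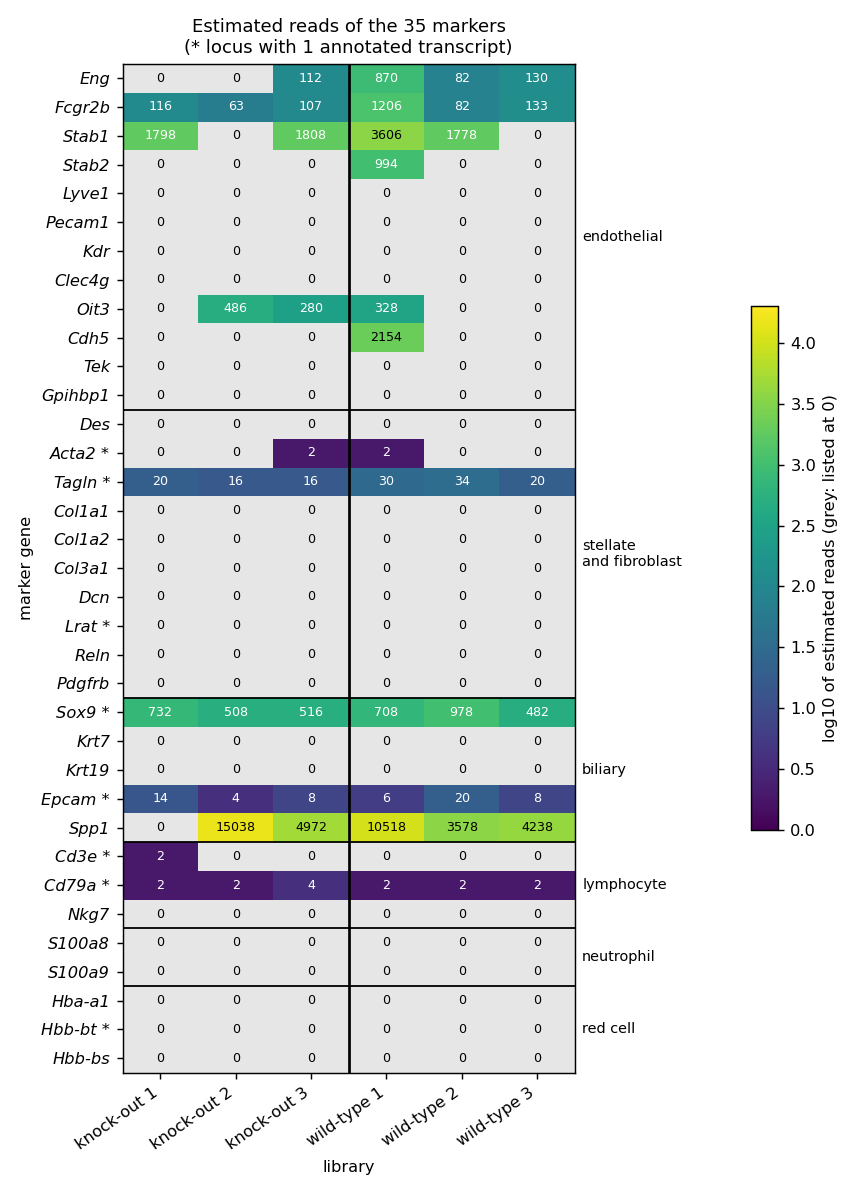
Estimated reads of the 35 markers (rows, by cell class) in the 6 libraries (columns, knock-out left of wild-type). The colour is the log10 of the reads, grey cells are listed at 0, and an asterisk marks a locus with 1 annotated transcript. Wild-type replicate 1 holds reads of 12 markers and the other libraries of 7 to 10.

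Of the 12 endothelial markers, 4 were highest in wild-type replicate 1. Of the 12, 6 were above 0 in some library, and wild-type replicate 1 was the 1 library with reads of all 6. It held the highest RPKM, reads divided by transcript length and by the library total, of Eng, Fcgr2b, Stab2 and Cdh5. Stab2 and Cdh5 counted as read only through that library, so their place was set in advance. Of the 5 endothelial markers with a mean of at least 1 RPKM, 3 were highest there, where 26.5% of all 11021 such genes were. These counts are a description only. Stab1, with up to 196.6 RPKM, was the member of the highest level, and it puts the sum of the 12 highest in wild-type replicate 2 in RPKM. All 12 lie at loci with 2 or more transcripts.

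Cdh5 is VE-cadherin, the adhesion protein of endothelial junctions (chromosome 8, 104101625 to 104144511, plus strand, GRCm38). It was listed at 0 in the 3 knock-out libraries and had 2154, 0 and 0 reads in wild-type replicates 1 to 3 (25.7 RPKM in replicate 1). Stab2, the stabilin that clears hyaluronan in sinusoidal endothelium, was at 0 in knock-out libraries, against 994, 0 and 0 reads in wild-type (5.77 RPKM in replicate 1). For both genes wild-type replicate 1 alone was above 0, and the groups overlap.

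Eng encodes endoglin, a co-receptor for TGF-beta family ligands (chromosome 2, 32646595 to 32682669, plus strand). It had 0, 0 and 112 reads in knock-out replicates 1 to 3 and 870, 82 and 130 in wild-type. Fcgr2b encodes the inhibitory Fc receptor by which sinusoidal endothelium removes immune complexes (chromosome 1, 170958617 to 170976547, minus strand). It had 116, 63 and 107 reads in knock-out libraries, against 1206, 82 and 133 in wild-type. Wild-type replicate 1 exceeded the next highest library 6.69-fold in reads of Eng and 9.07-fold in reads of Fcgr2b, and the other libraries of both groups overlapped. Eng, Fcgr2b and Stab1 are made by macrophages too, and the part of the high macrophage genes of that library in these values was not tested. Fcgr2b, the endothelial member above 0 in all 6 libraries, averaged 1.36 ± 0.40 RPKM in knock-out libraries, against 6.38 ± 8.55 in wild-type libraries (SD, n = 3 each). The difference was -0.99 on the log2(RPKM + 1) scale (SE 0.89, 95% interval -3.29 to 1.31, limma adjusted p = 0.941), and the interval spans changes in both directions.

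The promoters of Eng, Fcgr2b and Stab2 are shown because these members were highest in the same library and have an entry in the RefSeq promoter table, as 24 of the 35 markers do. Each holds 300 bases around the transcription start on GRCm38.p6, at chr2:32646345-32646644 (plus strand), chr1:170976022-170976321 (minus strand) and chr10:87007893-87008192 (minus strand). Capitals mark GGAA on either strand (TTCC on the strand printed), the core letters of ETS factors, a family of transcription factors active in endothelial cells.
Eng: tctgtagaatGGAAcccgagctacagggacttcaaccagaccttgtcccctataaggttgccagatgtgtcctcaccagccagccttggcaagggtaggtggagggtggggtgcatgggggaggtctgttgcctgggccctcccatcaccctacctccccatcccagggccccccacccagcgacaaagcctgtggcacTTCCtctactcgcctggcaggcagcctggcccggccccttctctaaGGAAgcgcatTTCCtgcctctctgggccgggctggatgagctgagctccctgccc
Fcgr2b: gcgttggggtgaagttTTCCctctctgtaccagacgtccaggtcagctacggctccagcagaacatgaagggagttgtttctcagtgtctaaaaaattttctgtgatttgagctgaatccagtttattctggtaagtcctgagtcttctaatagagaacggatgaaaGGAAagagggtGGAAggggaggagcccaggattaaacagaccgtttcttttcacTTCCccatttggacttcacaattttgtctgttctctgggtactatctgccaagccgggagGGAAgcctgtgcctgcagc
Stab2: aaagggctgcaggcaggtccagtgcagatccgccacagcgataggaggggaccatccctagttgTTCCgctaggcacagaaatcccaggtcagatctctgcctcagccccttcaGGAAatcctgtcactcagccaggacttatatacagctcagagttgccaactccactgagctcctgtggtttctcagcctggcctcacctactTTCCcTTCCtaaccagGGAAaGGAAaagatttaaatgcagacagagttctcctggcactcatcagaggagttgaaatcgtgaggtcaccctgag
The letters occurred 4 times in Eng, 5 times in Fcgr2b and 6 times in Stab2, and 96.0% of all 32851 promoters of 300 bases hold them. The longer CGGAAG, which overlaps GGAA, was found on either strand in 16.9% of promoters and in none of the 3 (0). GATA on either strand was in 57.9% of promoters, and once (1) in each of Fcgr2b and Stab2. These matches are letters only.

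Stab1, the other stabilin scavenger receptor (chromosome 14, 31139013 to 31168641, minus strand), was the endothelial marker with the most reads. It had 1798, 0 and 1808 reads in knock-out libraries, against 3606, 1778 and 0 in wild-type. In RPKM the order was another, with 45.3, 0 and 76.0 in knock-out libraries, against 86.4, 196.6 and 0 in wild-type. The reads had been assigned to different transcripts of the 13 annotated ones. In wild-type replicate 2 all 1778 went to Stab1-207, of 413 bases, and in knock-out replicate 3 all 1808 to Stab1-204, of 1236 bases with a retained intron. Knock-out replicate 1 divided its reads between Stab1-204 (392) and Stab1-212 (1406), and wild-type replicate 1 between Stab1-204 (819) and Stab1-205 (2787). Thus 3 libraries with nearly equal reads had RPKM values from 45.3 to 196.6, and the 2 libraries at 0 were 1 of each group.

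Oit3, a zona pellucida domain protein that marks sinusoidal endothelium, was the tested endothelial marker not lower in knock-out. It had 0, 486 and 280 reads in knock-out libraries, against 328, 0 and 0 in wild-type (0, 9.03 and 5.35 RPKM against 5.76, 0 and 0). Lyve1, a hyaluronan receptor, Pecam1, a junction protein, Kdr, the main VEGF receptor, and Tek, the angiopoietin receptor, were listed at 0 in every library. So were Clec4g, a sinusoidal lectin, and Gpihbp1, which holds lipoprotein lipase on capillaries. In wild-type replicate 1 these zeros stand beside 2154 reads of Cdh5.

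**Figure D2:**
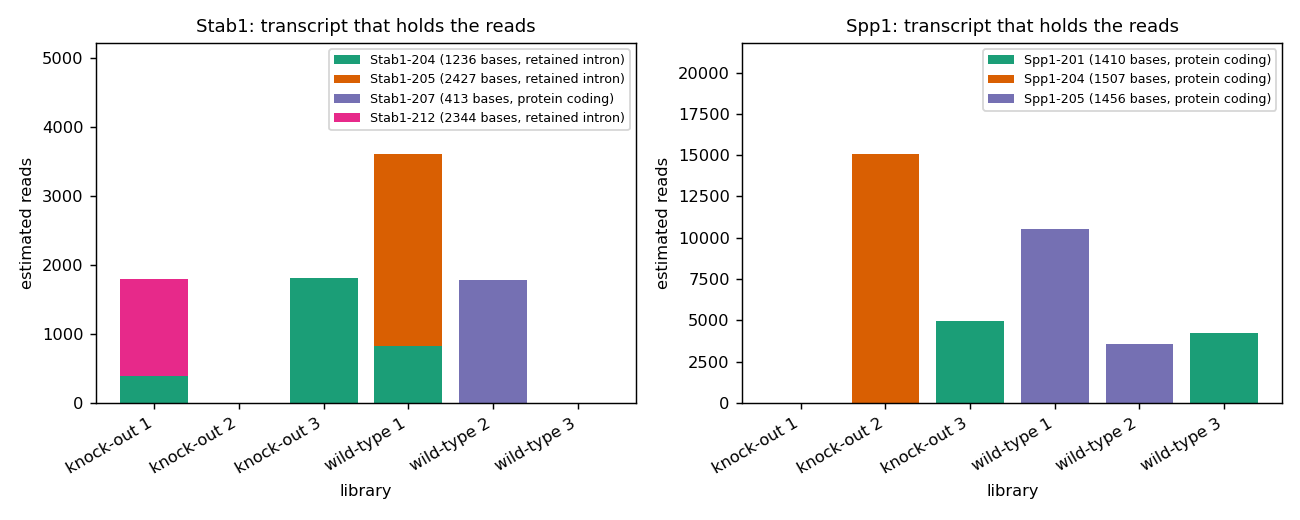
Estimated reads of Stab1 (left) and Spp1 (right) in the 6 libraries, coloured by the transcript they were assigned to, knock-out left of wild-type. The Spp1 reads of each library lie on 1 transcript, and the transcript differs between libraries of the same group.

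Endothelial genes at loci with 1 transcript were mostly highest in wild-type replicate 1 as well. They are not among the 35 and come from a list of 28 further endothelial markers, of which 13 were read, 9 lie at such loci, and 8 of the 9 were read. Mmrn2, an endothelial matrix protein, had 10, 4 and 12 reads in knock-out libraries, against 122, 2 and 6 in wild-type. Cldn5, the endothelial tight junction claudin, had 0, 0 and 2 reads in knock-out libraries, against 40, 0 and 0 in wild-type. Bmp2, the signal by which sinusoidal endothelium regulates iron in hepatocytes, had 6, 2 and 0 reads in knock-out libraries, against 40, 6 and 4 in wild-type. Wild-type replicate 1 was again the high library, and the other 2 wild-type libraries lay in or next to the knock-out range.

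Ehd3, a membrane trafficking protein, and Sox18, an endothelial transcription factor, followed with 24 and 12 reads in wild-type replicate 1 and 0 to 2 elsewhere. Plvap, the diaphragm protein of fenestrae, had 2, 4 and 2 reads in knock-out libraries, against 10, 4 and 8 in wild-type. The Wnt ligand Wnt2 had 4 reads in wild-type replicate 1 and 0 in the other libraries, and Wnt9b had 0 throughout. Rspo3, which enhances Wnt signalling and comes from central vein endothelium and stellate cells, differed, with 40, 24 and 10 reads in knock-out libraries, against 6, 34 and 24 in wild-type, lowest in replicate 1. Of the 8 genes read, 7 were highest in wild-type replicate 1 in RPKM, where 29.8% of 6303 genes at such loci were, and 6 exceeded every other library by over 2 times, where 9.61% did. Wnt2 counted as read only through that library, so its place was set in advance. Sox18 and Plvap had only 12 and 10 reads there, and these shares are a description only. Summed over the 9 genes, reads came to 58, 34 and 30 in knock-out libraries, against 258, 46 and 42 in wild-type. Beside them, the 5 macrophage genes at loci with 1 transcript summed to 766, 736 and 1804 reads in knock-out libraries, against 23818, 622 and 1566 in wild-type. Both sums thus put wild-type replicate 1 highest, and neither separated the genotypes in the other 5 libraries.

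**Figure D3:**
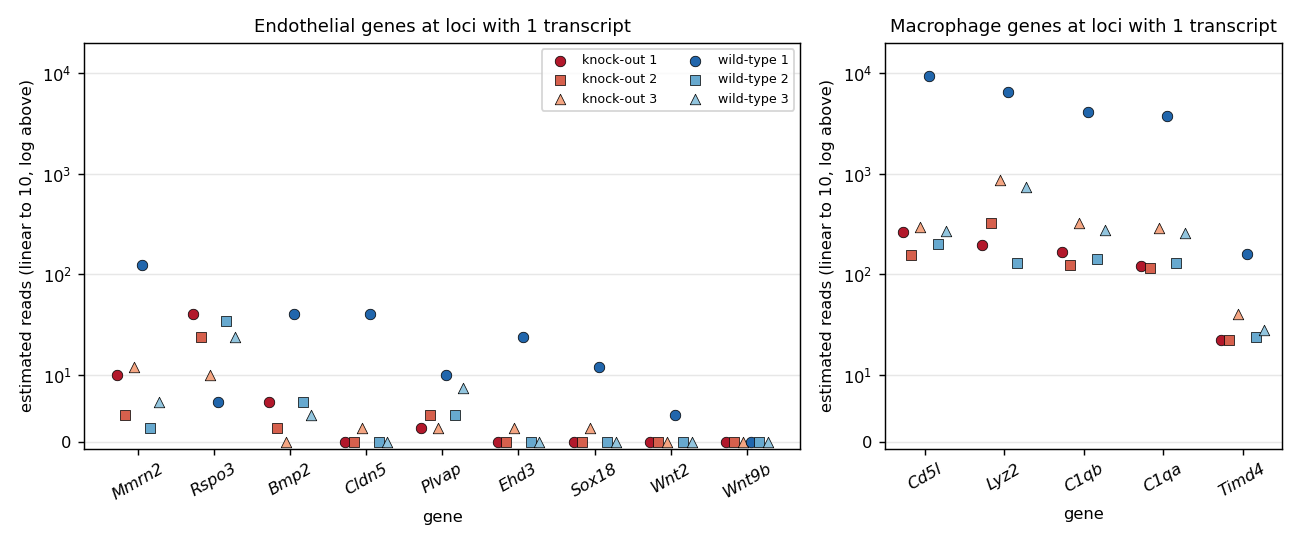
Estimated reads of 9 endothelial (left) and 5 macrophage genes (right) at loci with 1 transcript, 1 point a library, knock-out left of wild-type. The axis is linear to 10 and log above. Wild-type replicate 1 is highest for each macrophage gene and for 7 of the endothelial genes, with Rspo3 and Wnt9b the exceptions.

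At the other loci the same list gave scattered values. Vwf, von Willebrand factor, had 11, 8 and 15 reads in knock-out libraries, against 39, 10 and 10 in wild-type. Ptprb, the endothelial phosphatase VE-PTP, had 658 reads in wild-type replicate 1 and 0 elsewhere. Flt4, the lymphatic VEGF receptor, had 578 in knock-out replicate 1 and 0 elsewhere, and Gata4, a transcription factor of sinusoidal endothelium, 412 in wild-type replicate 3 and 0 elsewhere. Vwf, present in all 6, was highest in wild-type replicate 1 as well.

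Stellate cell and fibroblast markers were at or near 0 in all 6 libraries. Tagln, an actin-binding protein of smooth muscle and myofibroblasts, was the 1 marker of 10 read throughout, with 20, 16 and 16 reads in knock-out libraries, against 30, 34 and 20 in wild-type. Its level was 0.552 ± 0.062 RPKM in knock-out libraries, against 0.832 ± 0.192 in wild-type libraries (SD, n = 3 each), a difference that did not pass an exact two-sided permutation test (p = 0.2, and 0.5 adjusted over the 5 markers so tested), which cannot go below 0.1. Knock-out replicate 1 and wild-type replicate 3 had equal reads of Tagln, so the groups touch. Acta2, smooth muscle actin and the classic mark of an activated stellate cell, had 2 reads in knock-out replicate 3, 2 in wild-type replicate 1 and 0 in the others.

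Lrat, which esterifies vitamin A for storage and is the defining enzyme of quiescent stellate cells, had 0 reads in every library. Its locus has 1 transcript. At such loci all read numbers were even and the smallest was 2, so the smallest step was taken as 2 reads. An approximate upper limit for a count of 0, not a hard bound, was taken as 3 such steps, or 6 reads. For Lrat this is 0.0512 to 0.0583 RPKM, a limit that covers counting error only and holds if reads of Lrat could be counted. The collagens Col1a1, Col1a2 and Col3a1, the proteoglycan Dcn, the intermediate filament Des, the PDGF receptor Pdgfrb and the secreted Reln were listed at 0 throughout, all at loci with 2 or more transcripts. Acta2 and Lrat, the markers of the activated and the quiescent state, were thus listed at or under 6 reads, and for Lrat a gene left out of the estimates cannot be told apart from one without reads.

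Of 30 further stellate and fibroblast genes, 11 were read. At loci with 1 transcript, Hand2, Cygb, Tcf21, Lum and Cnn1 had 0 reads in all libraries, and Colec11, Ngfr, Myh11 and Loxl1 had 2 reads in 1 library each. Vim, vimentin, the intermediate filament of mesenchymal and endothelial cells, had 6586 to 13238 reads in knock-out libraries, against 7378 to 9286 in wild-type, at 325.9 ± 81.2 and 328.0 ± 71.1 RPKM (SD, n = 3 each; limma adjusted p = 1.0). Col4a1 and Col4a2, the collagen IV chains of basement membranes, were read at loci with 9 and 3 transcripts. Col4a1 had 3072, 2872 and 0 reads in knock-out libraries, against 0, 4552 and 0 in wild-type. Col4a2 had 1886, 1940 and 1164 reads in knock-out libraries, against 3246, 3190 and 712 in wild-type, so that the 2 wild-type libraries at the top stand beside the lowest of all. Vim did not follow the endothelial genes, since wild-type replicate 1 had 9286 reads, inside the knock-out range.

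Among the biliary markers, Spp1 and Sox9 were well read and the duct keratins were not. Spp1, osteopontin, a secreted phosphoprotein made by cholangiocytes and by macrophages (chromosome 5, 104435118 to 104441050, plus strand), had 0, 15038 and 4972 reads in knock-out libraries, against 10518, 3578 and 4238 in wild-type. That is 0, 503.6 and 183.2 RPKM in knock-out libraries, against 344.8, 112.2 and 146.4 in wild-type. Its reads lay on Spp1-201 in knock-out replicate 3 and wild-type replicate 3, on Spp1-204 in knock-out replicate 2, and on Spp1-205 in wild-type replicates 1 and 2. These 3 transcripts are 1410 to 1507 bases long, so its RPKM follow its reads. Spp1 made up most of the marker reads of a library where it was above 0, such as 15038 of 16117 in knock-out replicate 2. The 0 of knock-out replicate 1 is at a locus with 8 transcripts, and the remaining libraries of the groups overlap.

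Sox9, the transcription factor of the biliary lineage and of hepatocytes near the portal tract (chromosome 11, 112782224 to 112787760, plus strand), was the best measured member, above 0 everywhere at a locus with 1 transcript. It had 732, 508 and 516 reads in knock-out libraries, against 708, 978 and 482 in wild-type, or 8.75, 6.20 and 6.48 RPKM in knock-out libraries, against 8.17, 10.8 and 5.68 in wild-type. The wild-type values enclose the knock-out ones. The means were 7.14 ± 1.40 RPKM in knock-out libraries, against 8.22 ± 2.56 in wild-type libraries (SD, n = 3 each). The log2 difference was -0.15 (SE 0.28, 95% interval -0.89 to 0.58) with a limma adjusted p of 0.980.

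Epcam, the adhesion molecule of cholangiocytes and progenitor cells, had 14, 4 and 8 reads in knock-out libraries, against 6, 20 and 8 in wild-type. At 0.214 ± 0.120 RPKM in knock-out libraries, against 0.260 ± 0.165 in wild-type libraries (SD, n = 3 each) it lay far under Sox9. Krt7 and Krt19, the defining keratins of bile duct cells, were listed at 0 in all 6 libraries, at loci with 6 and 3 transcripts. Wild-type replicate 2 was highest for Sox9 and Epcam, and it also had the most hepatocyte reads.

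The 16 further biliary genes, of which 9 were read, split by library. Tm4sf4, a tetraspanin-like membrane protein, had 15660, 22016 and 17356 reads in knock-out libraries, against 9166, 16696 and 19086 in wild-type (limma adjusted p = 0.941). Cldn4, an epithelial claudin, had 6038, 2858 and 5100 reads in knock-out libraries, against 1858, 8970 and 4432 in wild-type (adjusted p = 1.0). Both were lowest in wild-type replicate 1, as were all 4 hepatocyte genes at loci with 1 transcript. Cd24a, a surface protein of duct cells and many leukocytes, had 6, 6 and 4 reads in knock-out libraries, against 56, 2 and 8 in wild-type. Aqp1, a water channel of duct and endothelial cells, had 8, 6 and 6 in knock-out libraries, against 82, 2 and 10 in wild-type. Cd24a and Aqp1 were highest in wild-type replicate 1, so the list went both ways in that library. Krt23, a keratin, had 2 to 6 reads in each library.

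Blood cell markers were nearly absent from the estimates. Cd3e, a chain of the T cell receptor complex, had 2 reads in knock-out replicate 1 and 0 in the other 5 libraries. Cd79a, of the B cell receptor, had 2, 2 and 4 reads in knock-out libraries, against 2 in each wild-type library. Both loci have 1 transcript, and all these values are at or under 6 reads, so no fold is given. Nkg7, of cytotoxic cells, was listed at 0. None of 20 further lymphocyte genes was read (0), among them 6 at loci with 1 transcript, such as Cd3d, Gzma, Gzmb and Prf1. The neutrophil calcium-binding proteins S100a8 and S100a9 were listed at 0 in all libraries, and so were Elane, Camp, Ngp and Retnlg at loci with 1 transcript. Of the 12 further neutrophil genes 3 were read, Csf3r, Il1b and Mmp8. Each was highest in wild-type replicate 1, with 890, 11150 and 6 reads there.

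The globin genes Hba-a1, Hbb-bt and Hbb-bs, which make up most of the messenger RNA of a red cell, were listed at 0 in every library. For Hbb-bt, at a locus with 1 transcript (chromosome 7, 103812524 to 103813996, minus strand), 6 reads would be 0.390 to 0.443 RPKM, a limit under the same condition. Hbb-bt has a near copy in Hbb-bs (103826534 to 103828096). In GENCODE transcripts on GRCm38 the coding sequences of Hbb-bt and Hbb-bs agree at 443 of 444 bases with an identical run of 416, and those of Hba-a1 and Hba-a2 at 428 of 429 with a run of 380. Coding bases 298 to 417 of both genes, on the minus strand of chromosome 7, are given to show this, with the base that differs in capitals.
Hbb-bt: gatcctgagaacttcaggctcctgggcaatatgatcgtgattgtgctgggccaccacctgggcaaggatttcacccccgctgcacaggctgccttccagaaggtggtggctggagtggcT
Hbb-bs: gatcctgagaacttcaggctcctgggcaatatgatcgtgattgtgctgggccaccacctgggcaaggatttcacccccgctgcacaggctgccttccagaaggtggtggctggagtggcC
A read that lies inside the identical run cannot be assigned to Hbb-bt or Hbb-bs by its sequence, and the treatment of such reads was not given in the sources used here, so the zeros of the globin genes are uncertain. Klf1 and Alas2, of the 9 further red cell genes matched, were read. Klf1, the erythroid transcription factor, had 2, 6 and 4 reads in knock-out libraries, against 12, 4 and 6 in wild-type, at a locus with 1 transcript. Alas2, the erythroid enzyme of heme synthesis, had 36, 0 and 24 reads in knock-out libraries, against 212, 56 and 0 in wild-type. Both were highest in wild-type replicate 1.

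Between knock-out and wild-type hepatocytes none of the markers passed the test. Of the 35, 7 had a mean of at least 1 RPKM and were tested (Eng, Fcgr2b, Stab1, Oit3, Cdh5, Sox9 and Spp1). By limma 0 of the 7 had an adjusted p below 0.05, where 0.789% of all 11021 genes tested did (0.372% higher and 0.417% lower in knock-out). An unadjusted p below 0.05 was reached by 0 of the 7, by limma or by voom, and by 1.89% of all genes tested in limma. Their adjusted p values lay between 0.941 and 1.0. Knock-out was lower for 6 of the 7 and higher for Oit3, with a median difference of -0.99 on the log2(RPKM + 1) scale, against -0.01 over all genes tested. This median is the value of Fcgr2b, which was above 0 in all 6 libraries, and it was -1.22 with a pseudocount of 0.1. The other differences depend more on the pseudocount where a marker has a library at 0, as 5 of the 7 do. The median also rests on wild-type replicate 1: without that library it was -0.05 over the 5 markers then tested. Of the 7, 3 exceeded every other library by over 2 times in wild-type replicate 1 (Eng, Fcgr2b and Cdh5), where 6.31% of all genes tested did. Eng and Cdh5 reached a mean of 1 RPKM only through that library. Their place in this count was thus favoured by the filter, and the count is a description only.

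Of the further markers, 1 endothelial, 6 stellate, 5 biliary, 2 neutrophil and 1 red cell gene were tested, and 0 passed in limma or had an unadjusted p below 0.05. Among the members above 0 in all 6 libraries, the exact two-sided permutation test gave p = 0.4 for Fcgr2b, 0.7 for Sox9, 0.7 for Epcam and 0.1 for Cd79a, besides 0.2 for Tagln (0.5 to 0.7 adjusted over these 5). For Cd79a, whose reads differ by 2 in a single library, that is the smallest p the test can give. It was the 1 member whose groups did not overlap in RPKM. All libraries but knock-out replicate 3 had 2 reads of it, so their order in RPKM follows the library totals. The separation is therefore not read as a difference. Groups did not overlap for 5.94% of 5538 genes tested that were above 0 in all 6 libraries. That set leaves out Cd79a, which had a mean of 0.079 RPKM.

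Summed by class, the markers give a profile of each preparation. At loci with 1 transcript, members and further markers together were summed in CPM, estimated reads scaled to the library total. Over 8 biliary genes wild-type replicate 1 had 420.3 CPM and the other 5 libraries 795.2 to 918.2, nearly all from Tm4sf4 and Cldn4. The 2 members among them, Sox9 and Epcam, summed to 26.4, 18.5 and 20.7 CPM in knock-out libraries, against 25.3, 32.1 and 17.4 in wild-type. For these 2 members wild-type replicate 1 lay inside the range of the other libraries. Over 9 endothelial genes the sums were 2.05, 1.23 and 1.18 in knock-out libraries, against 9.13, 1.48 and 1.49 in wild-type. Of the endothelial, macrophage, biliary and hepatocyte sums at these loci, wild-type replicate 1 was highest in the endothelial and macrophage ones and lowest in the biliary and hepatocyte ones. Over the 5 biliary members alone, at all loci, the sums were 26.4, 562.1 and 216.9 CPM in knock-out libraries, against 397.5, 147.0 and 168.1 in wild-type. They follow Spp1, with wild-type replicate 1 second to knock-out replicate 2. The 3 knock-out libraries and the other 2 wild-type libraries overlapped in the endothelial and biliary sums.

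**Figure D4:**
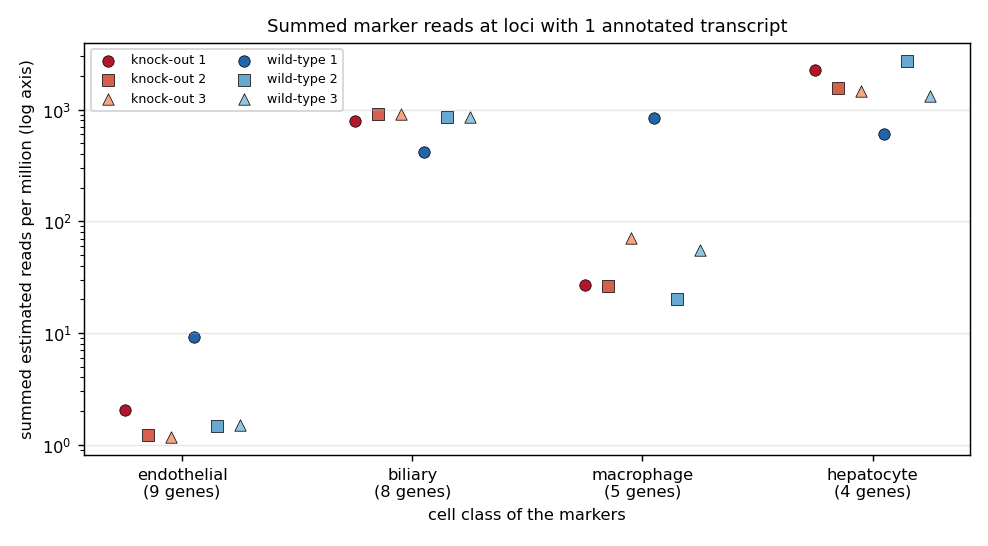
Summed CPM, estimated reads scaled to the library total (log axis), of marker genes at loci with 1 annotated transcript, by cell class, 1 point a library, knock-out left of wild-type. Wild-type replicate 1 is highest in the endothelial and macrophage sums, at 9.13 and 842.9, and lowest in the biliary and hepatocyte sums. The biliary sum is nearly all from Tm4sf4 and Cldn4.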

How the data were processed

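Each of the 6 libraries has an annotation file in which 118492 transcripts (48353 genes, 42295 loci) carry text attributes for RPKM and for an estimated read count, as deposited by the authors. Per the submitters' processing notes the aligner was TopHat2 (version 2) and the build GRCm38 (mm10). How reads were divided over transcripts was not given in the sources used here. The deposited values are other than whole counts, so limma and not a test for counts was the main test.

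Reads and RPKM were summed over transcripts per gene. Symbols came from a GENCODE M21 table (47993 genes matched), and transcript types from its annotation. Genes averaging 1 RPKM or more were fitted on log2(RPKM + 1) with limma 3.58.1 in R 4.3.3 (lmFit, eBayes with a trend, two-sided), knock-out minus wild-type, all 6 libraries, no covariate, and Benjamini-Hochberg adjusted p over all genes. This scale understates changes of low genes. The fit was tested on simulated data. Markers with a 0 in any library are given by library, with no fold. Tables were made with scipy 1.17.1, numpy 2.4.6 and pandas 2.3.3 under Python 3.11.15.

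Named are the 35 markers, Alb, and from each other list the 2 genes with the highest mean RPKM. Further genes, such as those at loci with 1 transcript, were named after their values were seen. The members and lists were chosen with earlier results of these data known. Of the other markers, Hbb-b1, Hbb-b2, Ahsp and Tf were not matched by symbol and were not used, and a few other genes are not reported here. Alternatives were the pseudocount, filter, scaling, estimated reads, voom, zeros, a replicate block and left-out libraries.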

Additional observations from a re-analysis of the deposited data

How the results depend on the processing

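No marker passed in any setting tried (0 called of 1 to 13 tested, with 0 at an unadjusted p below 0.05). The median difference of the markers, -0.99, moved by less than the spread between libraries, 1.51. That spread is larger than the difference itself, so even the fall to -0.05 without wild-type replicate 1 lies inside it. The comparison is thus no sign that the median is stable. Over all genes, 87 were called with limma, and 81 to 99 with another pseudocount, filter, quantile normalization, depth-scaled reads or voom. Among genes above 0 in all 6 libraries 0 were called (130 at an unadjusted p below 0.05), and among genes at loci with 1 transcript, an alternative chosen after seeing the data, 0 (46). Leaving out each library in turn gave 171 to 198. The replicate block called 0 (198 at an unadjusted p below 0.05). Same-numbered libraries had correlations of -0.16, -0.05 and -0.01 in their deviations, so the numbers show no pairing. The log2 ratio of the summed stellate RPKM, knock-out over wild-type, was -0.57 for the members, 0.048 for the further markers and -0.12 for those at loci with 1 transcript, the last chosen after seeing the data, since other genes enter the sum. That of the endothelial members, -1.33, was -2.06 to -0.72 without single libraries and -2.43 for the further markers. For those at loci with 1 transcript, also chosen after seeing the data, it was -1.37. These ratios rest largely on single values. Stab1 gave 196.6 of the 198.7 RPKM of the members in wild-type replicate 2, and Gata4 33.5 of the 34.5 RPKM of the further markers in wild-type replicate 3. At loci with 1 transcript wild-type replicate 1 had 4.48 RPKM, and replicates 2 and 3 had 0.841 and 0.813. The ratio of the biliary members, 0.17, was -1.07 to 0.78, negative without knock-out replicate 2 or without wild-type replicate 2 or 3, and -0.20 for the members at loci with 1 transcript. Values of a few reads set the limit for stellate, lymphocyte and neutrophil genes.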

Other observations

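Platelet and neutrophil genes beyond the listed markers were read in few libraries. Ppbp, a platelet chemokine, had 0, 0 and 2 reads in knock-out libraries, against 2, 6 and 0 in wild-type, at a locus with 1 transcript, and Gp1ba, a platelet adhesion receptor, had 18 in knock-out replicate 3 and 0 elsewhere. Csf3r, the receptor for granulocyte colony-stimulating factor, had 890 reads in wild-type replicate 1 and 0 elsewhere. Il1b, a cytokine of neutrophils and macrophages alike, had 0, 712 and 0 reads in knock-out libraries, against 11150, 0 and 690 in wild-type. Mmp8, the neutrophil collagenase, had 6 reads in wild-type replicate 1 and 0 elsewhere, at a locus with 1 transcript. In wild-type replicate 1 the neutrophil granule genes Elane, Camp and Ngp were at 0 beside these values.

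Fbln2, a matrix protein of portal fibroblasts, had 5964 reads in knock-out replicate 3 and 0 in the other 5 libraries, at a locus with 9 transcripts. Ecm1, a matrix protein, had 1418 and 1362 reads in wild-type replicates 1 and 3 and 0 in the others, at a locus with 11. Marco, a scavenger receptor of macrophages, had 2026, 1272 and 2084 reads in knock-out libraries, against 84562, 1870 and 2336 in wild-type. Cd68 had 0 in knock-out libraries, against 6732, 966 and 0 in wild-type. Hpx, the heme-binding hemopexin of hepatocytes, was at 3840 ± 649 RPKM in knock-out libraries, against 4090 ± 1353 in wild-type libraries (SD, n = 3 each).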
